A study of Mus musculus with 2 samples.

Results

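The genes described here are 8 mouse genes that carry, store and move iron or bind zinc and copper: Trf, Tfrc, Fth1, Ftl1, Slc40a1, Slc39a14, Mt1 and Mt2. They were chosen by symbol, with earlier results of these data known, from the 27998 genes of the deposited tables, and all 8 had UMIs in each library. Levels were compared between lung organoids treated with PBS (control) and organoids treated with IL-1β. Organoids of both conditions were grown for 2 weeks (culture time from the sample labels) from SPC lineage-labeled alveolar type 2 (AT2) cells of C57BL/6 mice, mixed with cultured lung stromal cells. The AT2 cells came from SPC-CreERT2;R26R-tdTomato mice given tamoxifen, so Cre was driven by the surfactant protein C promoter, and both conditions carry these alleles. The dose of IL-1β and the age of the culture are not given alike in every source, and nothing says how many animals stand behind each library. The culture medium of both conditions held a supplement of insulin, transferrin and selenium, so that transferrin protein came from outside the cells as well.

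Expression was measured by droplet-based 3′ scRNA-seq, with 1 library per condition. The control library held 2101 cell barcodes with a median of 14613 UMIs (unique molecular identifiers, each a counted mRNA molecule), and the IL-1β library 3066 barcodes with a median of 11496.5. After cell filters 2081 control and 3058 IL-1β cells were used, and 11 barcode sequences occurred in both libraries. With 1 library per condition no test of a difference is possible. Values are a gene's share of the summed UMIs of all cells in the class, as UMIs per 1000000 (CPM), and ratios are IL-1β CPM over control CPM. The 95% intervals in parentheses are exact, cover counting error only and say nothing of how much another culture would differ. Because the reads are 3′ tags, CPM of different genes are set side by side only as ratios within a class that are then compared across classes.

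Cells were grouped into classes by clustering without the 8 genes. AT2-lineage-like cells, which make and store surfactant, numbered 797 in control organoids and 1485 with IL-1β. AT1-like cells, the flat cells of gas exchange, numbered 222 and 390, and stromal cells 797 and 475. DATP-like cells, an intermediate state between AT2 and AT1 cells, were named only in the IL-1β library (91 cells) at the main clustering setting. Cycling-like cells were nearly all control cells (83 against 4) at that setting, so neither class was compared between conditions. At a clustering resolution of 0.5 the cycling-like class held 65 control and 38 IL-1β cells. The absence of control DATP-like cells depends on the setting. With libraries clustered separately 83 control cells were named DATP-like, and at a clustering resolution of 2.0 70 control and 744 IL-1β cells. With Louvain clustering it was 35 control cells. Without doublet removal, with member and list genes kept in clustering, and with random seed 1, it was 25 each. No control cell was so named at a resolution of 0.5 or without the top 5% of cells by UMIs. In the IL-1β library these alternatives named 116 to 744 cells DATP-like. The 91 cells of the main setting are thus fewer than in any of them. The paper also reports a small DATP cluster in control organoids. Each of the 12 epithelial clusters, and 10 of 12 stromal clusters, took at least 95% of its cells from 1 library. Control and IL-1β cells of a class therefore came from different clusters: AT2-lineage-like cells from E1 against E3, E4 and E5, and AT1-like cells from E7 against E6, whose leading genes held as many DATP markers (2) as AT1 markers (2). A change of level within a cell and a change in the kind of cell counted cannot be told apart. Another 182 control and 604 IL-1β epithelial cells stayed unnamed. Of the defining markers, all 10 AT2-lineage and all 12 AT1 markers were detected in each compared class of each library, so detection does not separate the classes. The AT2-lineage markers summed to 163259 (control) and 156993 CPM (IL-1β) in AT2-lineage-like cells, against 33055 and 35609 CPM in AT1-like cells. The AT1 markers summed to 24724 and 13431 CPM in AT1-like cells, against 1973 and 1020 CPM in AT2-lineage-like cells. Erythroid markers (4 hemoglobin genes and Alas2) gave at most 1 UMI in any compared class.

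Iron travels between cells bound to transferrin and enters through the transferrin receptor, or unbound through zinc and iron transporters of the ZIP family. Inside the cell it is stored in a shell built of ferritin heavy and light chains, and it leaves through ferroportin. Iron regulatory proteins bind hairpins in the untranslated regions of several of these mRNAs when iron is scarce: at the 5′ end they hold back translation, and at the 3′ end of the receptor mRNA they protect it from decay. Metallothioneins are small cysteine-rich proteins that bind zinc and copper, and their genes are switched on by metals, glucocorticoids and inflammation. In the lung these systems keep iron and oxidants at the air surface in check. Ferritin protein can thus change without any change in its mRNA, and only mRNA was measured here.

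Transferrin (Trf), the secreted iron carrier, stood at a higher level with IL-1β in AT2-lineage-like cells. In AT2-lineage-like cells it stood at 740 CPM (724 to 756) in control organoids and at 2248 CPM (2226 to 2270) with IL-1β, a ratio of 3.04 (2.97 to 3.11). After every cell was thinned to 4000 UMIs, the median AT2-lineage-like cell held 2 Trf UMIs in control and 7 in IL-1β organoids, and the 90th percentile was 7 against 22. The middle of the IL-1β cells thus reached the upper end of the control cells. Across the IL-1β AT2-lineage-like clusters the level ran from 1278 CPM in E5 over 2009 in E3 to 3700 in E4, whereas the control cluster E1 stood at 736. The IL-1β cells were thus spread more widely among themselves than the gap between E1 and E5. Of the few control cells in these clusters, 6 in E3 had 1311 CPM (1103 to 1547) and 3 in E5 had 365 CPM (195 to 625). In the unnamed IL-1β cluster E2 (564 cells, with 75.6% of the AT2-lineage Sftpc level) Trf stood at only 944 CPM. The marker list with the highest mean log2 fold in E2 was that of DATP cells (0.21). E2 stayed unnamed because markers of another class were among its leading genes. When E2 and the unnamed control cluster E8 (649 CPM) were counted as AT2-lineage-like, an alternative added after the data were seen, the Trf ratio was 2.64. In other IL-1β epithelial cells Trf reached 3133 CPM in the unnamed cluster E11 (36 cells) and 9206 CPM in 9 airway-secretory-like cells, a cluster singled out after its values were seen. The marker list with the highest mean log2 fold in E11 was that of cycling cells (1.04), but no cycling marker was among its leading genes.

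AT1-like cells had 68.4 CPM of Trf (59.6 to 78.1) in control organoids and 247 CPM (234 to 261) with IL-1β, a ratio of 3.61 (3.12 to 4.19). These are 9.25% and 10.99% of the AT2-lineage-like level of each library, while Sftpc, the surfactant protein C gene that AT1 cells should lack, stood in AT1-like cells at 23.9% and 26.5% of its AT2-lineage-like level, and the surfactant gene Sftpa1 at 12.3% and 11.7%. How much of these AT1-like values is RNA of AT2-lineage-like cells was not tested. Across alternative settings the AT1-like Trf ratio ran from 1.93 (member and list genes kept in clustering) to 4.87 (cells thinned to 4000 UMIs). Stromal cells had 29.4 CPM (26.6 to 32.5) in the control and 153 CPM (145 to 161) with IL-1β, 3.98% and 6.82% of the AT2-lineage-like level. Sftpc was found in stromal cells at 3.74% and 5.57%. The stromal Trf shares thus lay near those of Sftpc, somewhat above them in each library. How much of the stromal Trf is RNA of AT2-lineage-like cells was not tested, and the stromal ratio is not read as expression by stromal cells. Within the stroma the IL-1β cluster S8 (70 cells, led by Mmp10 and Il11) stood apart, with Trf at 245 CPM or 10.9% of the AT2-lineage-like level against 4.23% for Sftpc. The order of the classes was cycling-like, AT2-lineage-like, AT1-like and stromal in the control, and AT2-lineage-like, DATP-like (956 CPM), AT1-like and stromal in the IL-1β library, with no overlap of neighbouring intervals. The DATP-like level depends on where that class is drawn: it reached 3312 CPM when cells were clustered with the Louvain algorithm.

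**Figure D1:**
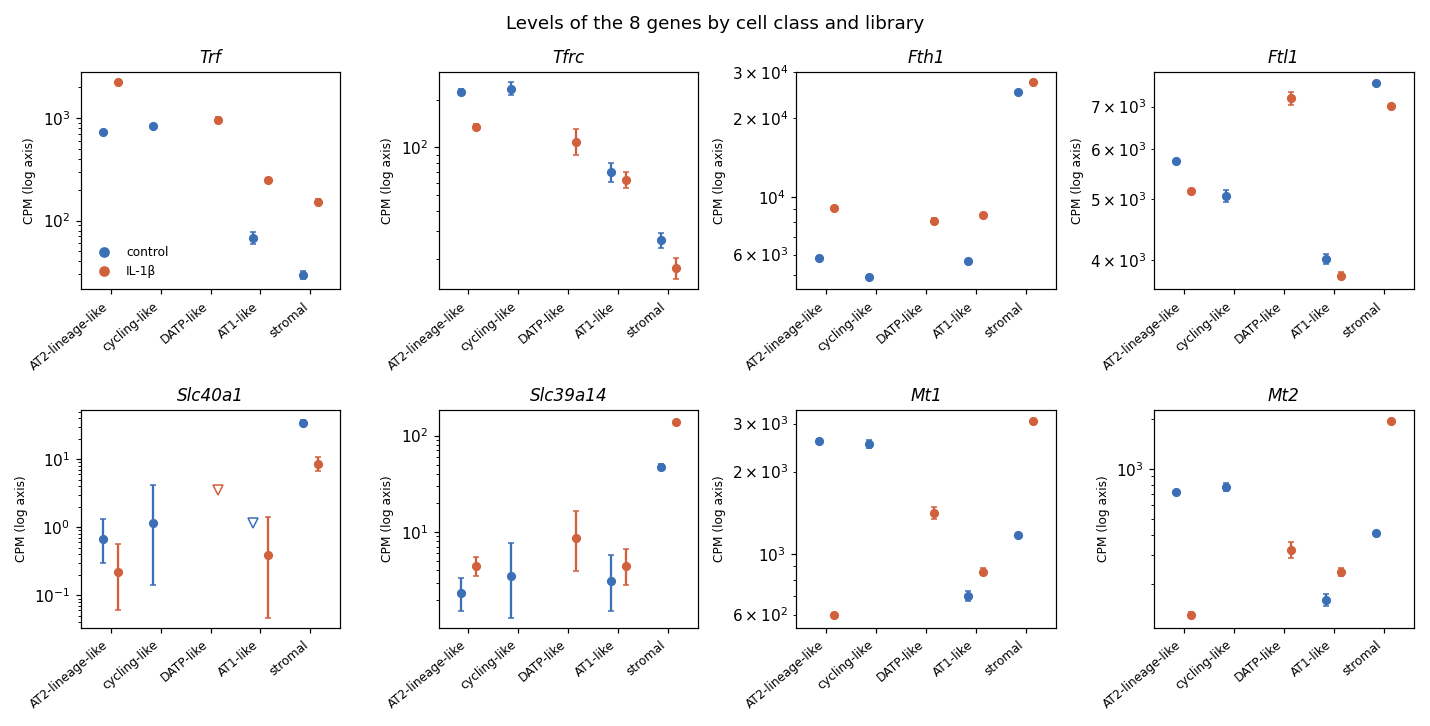
Levels of the 8 genes in each cell class of the control (blue) and IL-1β (orange) libraries, as CPM on a log axis with 95% counting intervals; open triangles mark the upper interval limit where no UMI was found. Trf, Tfrc, Mt1 and Mt2 of AT2-lineage-like cells differ in different directions (Trf 740 and 2248, Mt1 2599 and 595), and Slc40a1 and Slc39a14 lie mainly in stromal cells.

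The transferrin receptor (Tfrc), which takes up iron-loaded transferrin, was lower with IL-1β in AT2-lineage-like cells. AT2-lineage-like cells had 224 CPM (215 to 232) in the control and 135 CPM (130 to 141) with IL-1β, a ratio of 0.605 (0.572 to 0.639). After thinning, a Tfrc UMI was found in 59.5% of control and 38.5% of IL-1β cells (91.5% and 68.9% before thinning, at median depths of 14058 and 11460 UMIs), while in stromal cells, where the gene is low, these shares were 8.41% and 6.74%. In AT1-like cells the receptor stood at 70.0 and 62.6 CPM, and the ratio of 0.895 had an interval (0.752 to 1.07) that takes in 1 and lay above 1 in 3 of 14 alternative settings, so no direction is given. Stromal cells had 26.1 CPM in the control and 17.3 CPM with IL-1β, a ratio of 0.664 (0.548 to 0.801). In the control, 4 cells of the stromal cluster S12, which had all 10 macrophage markers, held 1087 CPM of Tfrc. Without S12 and S10, a stromal cluster of 16 control and 23 IL-1β cells with epithelial markers, the stromal ratio was 0.794. Cycling-like control cells had 235 CPM, within counting error of AT2-lineage-like cells, and DATP-like cells 109 CPM. Among IL-1β epithelial clusters the unnamed E2, which held 75.6% of the AT2-lineage Sftpc level, had 93.7 CPM against 123 to 143 CPM in E3, E4 and E5.

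The receptor mRNA is the one of the 8 with iron-responsive hairpins in its 3′ UTR. A search of GENCODE M21 transcripts for an unpaired C, 5 stem bases, the loop CAGTGN and 5 bases that pair with the stem (G with T pairs allowed, sense strand only) found 4 of them there. They are shown because they are the known means by which iron sets the amount of this mRNA, the quantity counted here. Positions are on GRCm38, and capitals mark the loop.
Tfrc 3′ UTR, chr16:32631219-32631248 (+): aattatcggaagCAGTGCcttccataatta
Tfrc 3′ UTR, chr16:32631598-32631627 (+): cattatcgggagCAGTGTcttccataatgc
Tfrc 3′ UTR, chr16:32631663-32631692 (+): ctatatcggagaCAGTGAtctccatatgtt
Tfrc 3′ UTR, chr16:32631710-32631739 (+): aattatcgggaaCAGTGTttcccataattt
A 3′ UTR hairpin of this form was found in 0.581% of 21875 genes, and a match is a description and not proof of a working site. Tfrc itself lies at chr16:32608920-32632794 on the plus strand.

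The ferritin chains differed between the libraries in opposite directions in AT2-lineage-like cells. Fth1 encodes the heavy chain, which oxidizes iron as it enters the shell, and stood in AT2-lineage-like cells at 5828 CPM (5784 to 5871) in the control and 9089 CPM (9045 to 9133) with IL-1β, a ratio of 1.56 (1.55 to 1.57). Ftl1 encodes the light chain, which helps form the iron core, and stood at 5744 CPM (5701 to 5788) and 5135 CPM (5101 to 5168), a ratio of 0.894 (0.885 to 0.903). Fth1 UMIs per Ftl1 UMI therefore numbered 1.01 in the control and 1.77 with IL-1β. Each of the IL-1β AT2-lineage-like clusters was above E1 (5783 CPM) in Fth1, at 8618 CPM in E3, 8976 in E4 and 9660 in E5. Ftl1 did not set E1 apart in this way, since E5 (5812 CPM) was above and E3 (4295 CPM) and E4 (5338 CPM) were below E1 (5745 CPM). Few control cells fell in the IL-1β clusters. Of these, 6 in E3 had 10759 CPM of Fth1 (10146 to 11400) and 3 in E5 had 5539 CPM (4792 to 6368). Per cell thinned to 4000 UMIs the median of Fth1 was 23 UMIs (10th to 90th percentile 14 to 33) in the control and 32 (19 to 55) with IL-1β.

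AT1-like cells gave a like picture, with Fth1 at 5675 CPM in the control and 8499 CPM with IL-1β (ratio 1.498, 1.47 to 1.52) and Ftl1 at 4007 and 3774 CPM (ratio 0.942, 0.921 to 0.963). Fth1 per Ftl1 was 1.42 in the control and 2.25 with IL-1β. The Ftl1 ratio of AT1-like cells was above 1 in 3 of 14 alternative settings (highest 1.02), so no direction is given for it. In the IL-1β library the DATP-like cells had Ftl1 at 7216 CPM, above the AT2-lineage-like (5135) and AT1-like (3774) cells of the same library, and an Fth1 per Ftl1 ratio of only 1.12. Under other settings the Ftl1 level of this class lay between 5365 and 7299 CPM.

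Stromal cells held more ferritin heavy chain mRNA than any epithelial class, at 25202 CPM in the control and 27462 CPM with IL-1β. Both chains together made up 3.28% and 3.45% of all stromal UMIs, against 1.16% and 1.42% in AT2-lineage-like cells. The stromal Fth1 ratio of 1.09 (1.08 to 1.10) had no stable direction: it was 0.827 when every cell was thinned to the same depth and 0.737 without the top 5% of cells by UMIs. The thinned median per cell was 94 UMIs in the control and 57 with IL-1β. In the IL-1β library 171 of 475 stromal cells belonged to cluster S3 (led by Dcn, Ccl8 and Saa3), which had 55.8% of the stromal UMIs and 35665 CPM of Fth1, while the 195 cells of S2 (led by Vnn3 and Mmp3) had 10577 CPM. Control stromal clusters of at least 30 cells ran from 11068 CPM in S5, led by Ctgf, to 34018 CPM in S1. The clusters thus differed among themselves by far more than the libraries did. The highest level of all, 55857 CPM of Fth1 and 26324 CPM of Ftl1, was that of the 4 macrophage-like cells of S12. Ftl1 over all stromal cells stood at 7620 and 7015 CPM, a ratio of 0.921 (0.912 to 0.930). Relative to the median gene of the stroma, whose log2 ratio was −0.33, the Ftl1 ratio turned to 1.16.

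**Figure D2:**
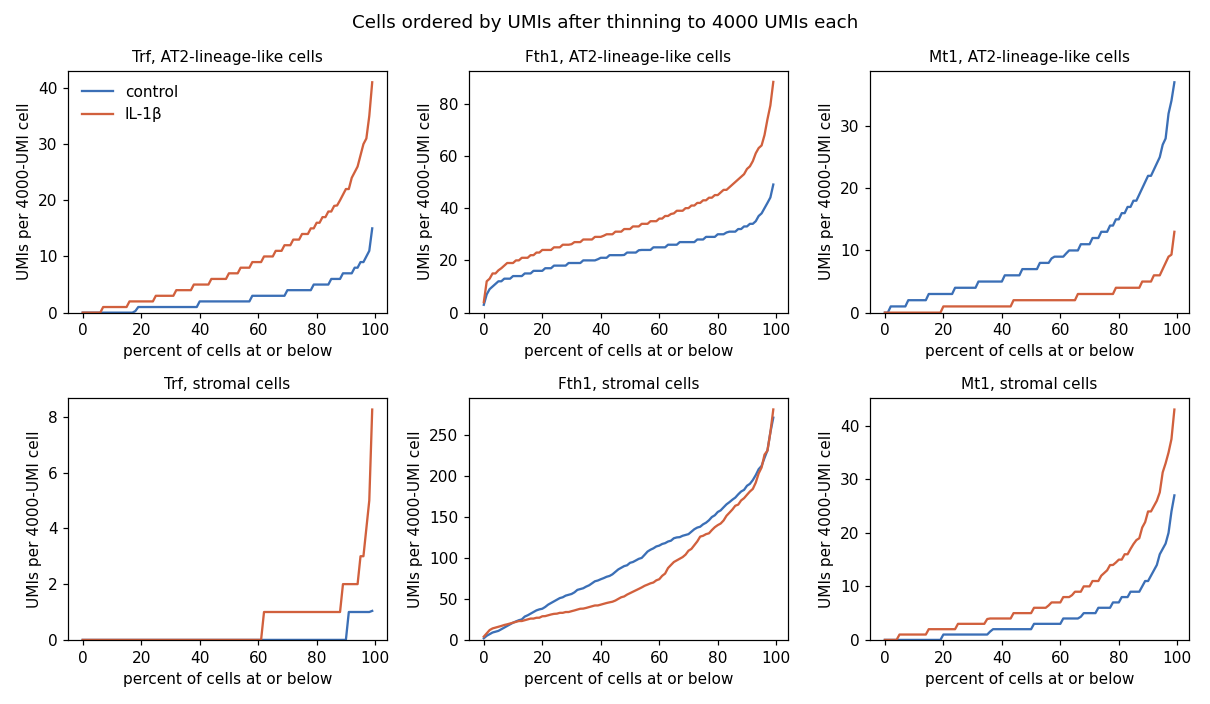
UMIs of Trf, Fth1 and Mt1 per cell after thinning each cell to 4000 UMIs, with cells of each library ordered from lowest to highest (x axis, percent of cells, up to 99) in AT2-lineage-like (upper row) and stromal cells (lower row); blue is control and orange IL-1β. In AT2-lineage-like cells the Mt1 median is 7 in the control and 2 with IL-1β and the Fth1 median 23 and 32, while the stromal Fth1 curve of the IL-1β library lies below that of the control over the middle range (medians 57 and 94).

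Each ferritin mRNA has 1 iron-responsive hairpin in its 5′ UTR, shown because this site is known to act on translation, which UMI counts do not measure. Fth1 lies at chr19:9980598-9985098 (plus strand) and Ftl1 at chr7:45457944-45459884 (minus strand) of GRCm38. The sequences are given 5′ to 3′ along the mRNA, with the loop in capitals.
Fth1 5′ UTR, chr19:9982732-9982761 (+): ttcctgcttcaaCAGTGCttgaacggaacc
Ftl1 5′ UTR, chr7:45459778-45459807 (−): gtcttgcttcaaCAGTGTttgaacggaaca
A 5′ UTR hairpin of this form was found in 0.128% of the 21875 genes. The annotation also names 5 pseudogenes of the Fth and 3 of the Ftl family, and reads shared with such copies may have been dropped or misplaced by the counting, so that the ferritin levels are less certain than the others.

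**Figure D3:**
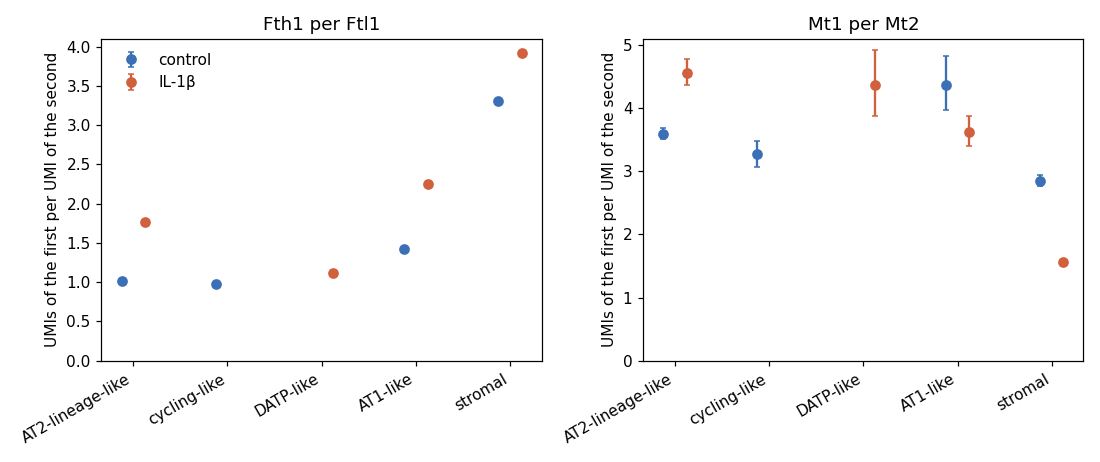
UMIs of Fth1 per UMI of Ftl1 (left) and of Mt1 per UMI of Mt2 (right) by cell class and library, on axes that start at 0 and with 95% counting intervals. Fth1 per Ftl1 is higher with IL-1β in all 3 classes compared (1.01 to 1.77 in AT2-lineage-like cells), and Mt1 per Mt2 is lowest in IL-1β stromal cells (1.57).

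Ferroportin (Slc40a1), the only known exporter of iron, was a stromal gene in these cultures. In stromal cells 469 UMIs were counted in control and 81 in IL-1β organoids, or 34.5 CPM (31.5 to 37.8) and 8.57 CPM (6.80 to 10.6), a ratio of 0.248 (0.194 to 0.315). A UMI was found in 10.5% of control and 3.79% of IL-1β stromal cells after thinning (28.9% and 12% before, at median depths of 15735 and 14849), against 0.125% and 0.202% of AT2-lineage-like cells. The control level was carried by clusters S7 (106 CPM, led by Nkd2 and Col11a1) and S4 (56.9 CPM, led by Ptn), with 160 and 140 of the 469 UMIs, while S5 had 3.38 CPM. IL-1β clusters S2, S3 and S8 lay between 5.38 and 9.29 CPM, below S7, S4, S9 and S1 of the control. Their counting intervals overlapped those of S6 (11.2 CPM) and S5 of the control. The overlap of S3 (6.87 to 12.3 CPM) with S5 (1.36 to 6.97 CPM) was slight. Within S5 the difference went the other way, with 7 UMIs in 85 control cells and 8 in 15 IL-1β cells, where the level was 16.3 CPM (7.05 to 32.2). In S10, with 16 control and 23 IL-1β cells, it stood at 24.2 and 5.16 CPM (9 and 2 UMIs). Macrophages are rich in ferroportin, and the summed level of 10 macrophage markers in stromal cells was 44.4 CPM in the control (all 10 detected) and 18.3 CPM with IL-1β, where Ptprc, Adgre1, C1qa, C1qb, Marco and Mrc1 were at 0. The 4 cells of S12 held 401 of the 603 control macrophage UMIs but 22 of the 469 Slc40a1 UMIs, and without S10 and S12 the Slc40a1 ratio was 0.262. In AT2-lineage-like cells 8 control and 4 IL-1β UMIs were counted, a ratio of 0.327 with an interval from 0.0720 to 1.22, in AT1-like cells 0 and 2, and in DATP-like cells 0. With 3 UMIs taken as the limit for a count of 0, up to 0.942 CPM (AT1-like control) and 2.89 CPM (DATP-like) are allowed. The upper limits of the exact intervals are 1.16 and 3.55 CPM. The AT2-lineage-like Slc40a1 levels were 1.98% and 2.61% of the stromal ones. For the stromal genes Col1a1, Col1a2, Col3a1 and Sparc this share was 1.87% to 7.58% in the control and 1.58% to 4.26% with IL-1β. How much of the AT2-lineage-like Slc40a1 is RNA of stromal cells was not tested. The gene lies at chr1:45908068-45926523 (minus strand), and its 5′ UTR holds the same kind of hairpin as the ferritin mRNAs.
Slc40a1 5′ UTR, chr1:45925464-45925493 (−): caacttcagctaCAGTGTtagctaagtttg

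Slc39a14 encodes ZIP14, an importer of zinc, manganese and iron that is not bound to transferrin. It was likewise found mainly in stromal cells, but with the opposite difference, at 47.2 CPM (43.6 to 51.0) in the control and 137 CPM (130 to 145) with IL-1β, a ratio of 2.91 (2.64 to 3.20). Every control stromal cluster of at least 30 cells had between 28.9 and 57.7 CPM, and the IL-1β clusters had 73.7 CPM (S8), 121 CPM (S3) and 244 CPM (S2), so that the point values of the libraries did not overlap. The counting interval of S8 (60.3 to 89.1 CPM) overlapped those of the control clusters S1, S5, S6 and S9. AT2-lineage-like cells gave 27 and 79 UMIs (2.31 and 4.42 CPM, ratio 1.91, 1.22 to 3.08), and AT1-like cells 10 and 23 UMIs (ratio 1.42, 0.650 to 3.34). The AT2-lineage-like levels are 4.90% and 3.22% of the stromal ones, and 4 other stromal genes, Col1a1, Col1a2, Col3a1 and Sparc, gave 1.87% to 7.58% in the control and 1.58% to 4.26% with IL-1β. Sparc gave the top of each range, and the collagen genes gave at most 2.58% in the control and 2.53% with IL-1β. How much of the AT2-lineage-like Slc39a14 is RNA of stromal cells was not tested. The gene lies at chr14:70303469-70351425 (minus strand), and Trf at chr9:103204001-103230444 (minus strand).

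The metallothioneins Mt1 and Mt2 were lower with IL-1β in AT2-lineage-like cells and higher in stromal cells. In AT2-lineage-like cells Mt1 stood at 2599 CPM (2569 to 2628) in the control and 595 CPM (584 to 607) with IL-1β, a ratio of 0.229 (0.224 to 0.234), and Mt2 at 723 CPM (707 to 738) and 131 CPM (125 to 136), a ratio of 0.181 (0.172 to 0.189). The thinned Mt1 count of the median cell was 7 UMIs (10th to 90th percentile 2 to 22) in the control and 2 (0 to 5) with IL-1β. Every large epithelial cluster high in Sftpc kept this order: E1 (2619 CPM) and the unnamed control cluster E8 (2130 CPM, with 93.0% of the AT2-lineage Sftpc level) were above E3 (497), E4 (566), E5 (720) and E2 (711). Cycling-like control cells had 2526 CPM of Mt1, within counting error of the AT2-lineage-like cells of that library. When E2 and E8 were counted as AT2-lineage-like, an alternative added after the data were seen, the Mt1 ratio was 0.249 and the Mt2 ratio 0.203.

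In AT1-like cells both genes were low in the control, with Mt1 at 702 CPM (27.0% of the AT2-lineage-like level) and Mt2 at 161 CPM (22.2%). In the same cells Sftpc stood at 23.9%, Sftpb at 15.8% and Sftpa1 at 12.3% of the AT2-lineage-like level, and the part of AT2-lineage RNA in the metallothionein values was not tested. With IL-1β they were 859 CPM and 237 CPM, above the AT2-lineage-like cells of the same library. The ratios of 1.22 (1.16 to 1.29) for Mt1 and 1.47 (1.33 to 1.64) for Mt2 turned to 0.965 and 0.992 at a clustering resolution of 0.5, so no direction is given. DATP-like cells had 1411 CPM of Mt1 and 323 CPM of Mt2, above the AT2-lineage-like and AT1-like cells of the same library. With another random seed these levels were 767 and 174 CPM, below those of AT1-like cells in that clustering, so the order of these classes depends on the setting.

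In stromal cells Mt1 stood at 1170 CPM (1152 to 1188) in the control and 3055 CPM (3019 to 3090) with IL-1β, a ratio of 2.61 (2.56 to 2.66), and Mt2 at 411 CPM (401 to 422) and 1949 CPM (1921 to 1977), a ratio of 4.74 (4.599 to 4.88). Together they made up 0.158% of control and 0.5003% of IL-1β stromal UMIs, against 0.332% and 0.0726% in AT2-lineage-like cells. The higher stromal level was not shared evenly by the clusters, and markers of cell kinds differed with it. In stromal cells the summed level of 6 contractile markers was 564 CPM in the control (all 6 detected) and 54.6 CPM with IL-1β (Des and Actg2 at 0), and that of 6 matrix fibroblast markers 995 and 6436 CPM (Tcf21 at 0 in both). A sum can rest on 1 gene, and Dcn was among the leading genes of S3 and S2. The mean log2 fold of the 6 matrix fibroblast markers over other stromal cells was −0.14 in S3, 0.16 in S2 and −0.41 in S8. In clusters with at least 30 control cells it ran from −1.03 in S5 to 0.48 in S7. The 4 neutrophil markers summed to 15.01 and 59.1 CPM (S100a9 at 0 in both, Retnlg at 0 in the control), and the 4 endothelial markers to 2.50 and 25.4 CPM (Cdh5 and Cldn5 at 0 in the control). The part of these differences in the stromal values of Mt1, Mt2, Slc39a14 and Slc40a1 was not tested. Cluster S3 had 4083 CPM of Mt1 and 2534 CPM of Mt2, S2 had 1309 and 949 CPM, and S8 had 1136 and 430 CPM, whereas control clusters of at least 30 cells ran from 620 to 2024 CPM of Mt1 and from 95.7 to 650 CPM of Mt2. Of the IL-1β clusters of that size, S3 lay above every control cluster for Mt1, and S3 and S2 for Mt2. S3 held deep cells (median 28947 UMIs against 7750 in S2), and 92 of its 171 cells were among the top 5% by UMIs. With the top 5% left out the stromal ratio was 1.69 for Mt1 and 3.50 for Mt2, and with equal depth per cell it was 1.99 and 3.72. Cluster S5, which had Acta2 and Tagln among its leading genes and held cells of both libraries, had 942 CPM of Mt1 in 85 control cells and 4620 CPM in 15 IL-1β cells, and 650 and 4181 CPM of Mt2.

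**Figure D4:**
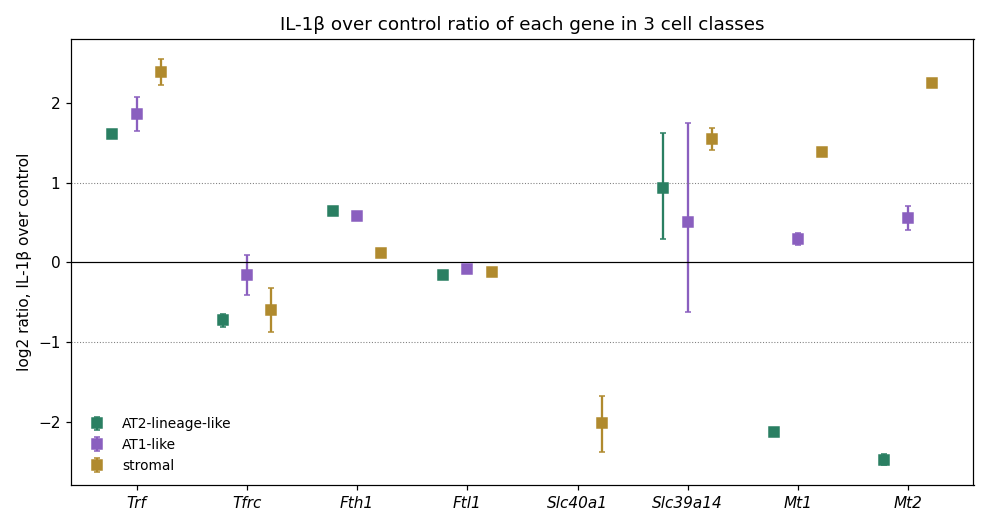
Ratio of IL-1β over control on a log2 scale for each gene with at least 20 UMIs in the class, in AT2-lineage-like, AT1-like and stromal cells, with 95% counting intervals; dotted lines mark 2-fold. Mt1 and Mt2 lie below −2 in AT2-lineage-like cells and above 1 in stromal cells, and Slc40a1 is shown for stromal cells only (log2 ratio −2.01).

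The 2 genes lie side by side on chromosome 8, Mt2 at chr8:94172664-94173568 and Mt1 at chr8:94179082-94180327 (both plus strand), with 5513 bases between them. Mt1 and Mt2 levels over 20 clusters by library had a Pearson correlation of 0.87 on the log scale, a description that shares libraries and depth. Yet they did not keep a fixed proportion. Mt1 per Mt2 was 3.60 (3.51 to 3.68) in control and 4.56 (4.36 to 4.77) in IL-1β AT2-lineage-like cells, but 2.84 (2.76 to 2.93) in control and 1.57 (1.54 to 1.60) in IL-1β stromal cells. The intervals do not overlap within either class. Stromal clusters of 1 library differed as well. In the control, S7 had 933 UMIs of Mt1 and 144 of Mt2, and S5 had 1949 and 1344. With IL-1β, S3 had 21540 and 13366, and S8 had 1634 and 619. The part of the mix of clusters in the stromal proportions was not tested.

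The promoters are printed because the pair is known to answer to metals through metal response elements, and because the proportions above differ. Each window runs from 250 bases before to 50 bases after the RefSeq start (GRCm38.p6). Capitals mark the element core, TGCACNC or TGCGCNC on either strand. For a match on the reverse strand the printed letters are the reverse complement of the core, such as GTGTGCA.
Mt1, chr8:94178839-94179138 (+): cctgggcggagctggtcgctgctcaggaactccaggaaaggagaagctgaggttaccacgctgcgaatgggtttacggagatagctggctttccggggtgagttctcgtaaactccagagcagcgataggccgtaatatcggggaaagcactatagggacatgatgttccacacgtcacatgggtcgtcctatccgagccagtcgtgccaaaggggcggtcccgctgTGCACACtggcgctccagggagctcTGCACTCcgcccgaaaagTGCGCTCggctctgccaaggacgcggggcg
Mt2, chr8:94172368-94172667 (+): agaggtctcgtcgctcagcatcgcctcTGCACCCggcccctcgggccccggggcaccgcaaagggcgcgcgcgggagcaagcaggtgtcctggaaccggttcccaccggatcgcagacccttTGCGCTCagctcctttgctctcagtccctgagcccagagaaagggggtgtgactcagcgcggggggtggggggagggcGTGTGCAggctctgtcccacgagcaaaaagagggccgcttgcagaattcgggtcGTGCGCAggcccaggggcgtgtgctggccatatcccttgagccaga
The Mt1 window held 3 matches and the Mt2 window 4. Of 32851 promoter windows of the same length 25.7% held at least 1 match, 1.97% held 3 or more and 0.517% held 4 or more. The windows of Fth1 and Ftl1 held 0 matches, and 1 of the 2 Tfrc windows held 2 overlapping ones. A match is not a site, and other sequence near the genes was not searched.

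**Figure D5:**
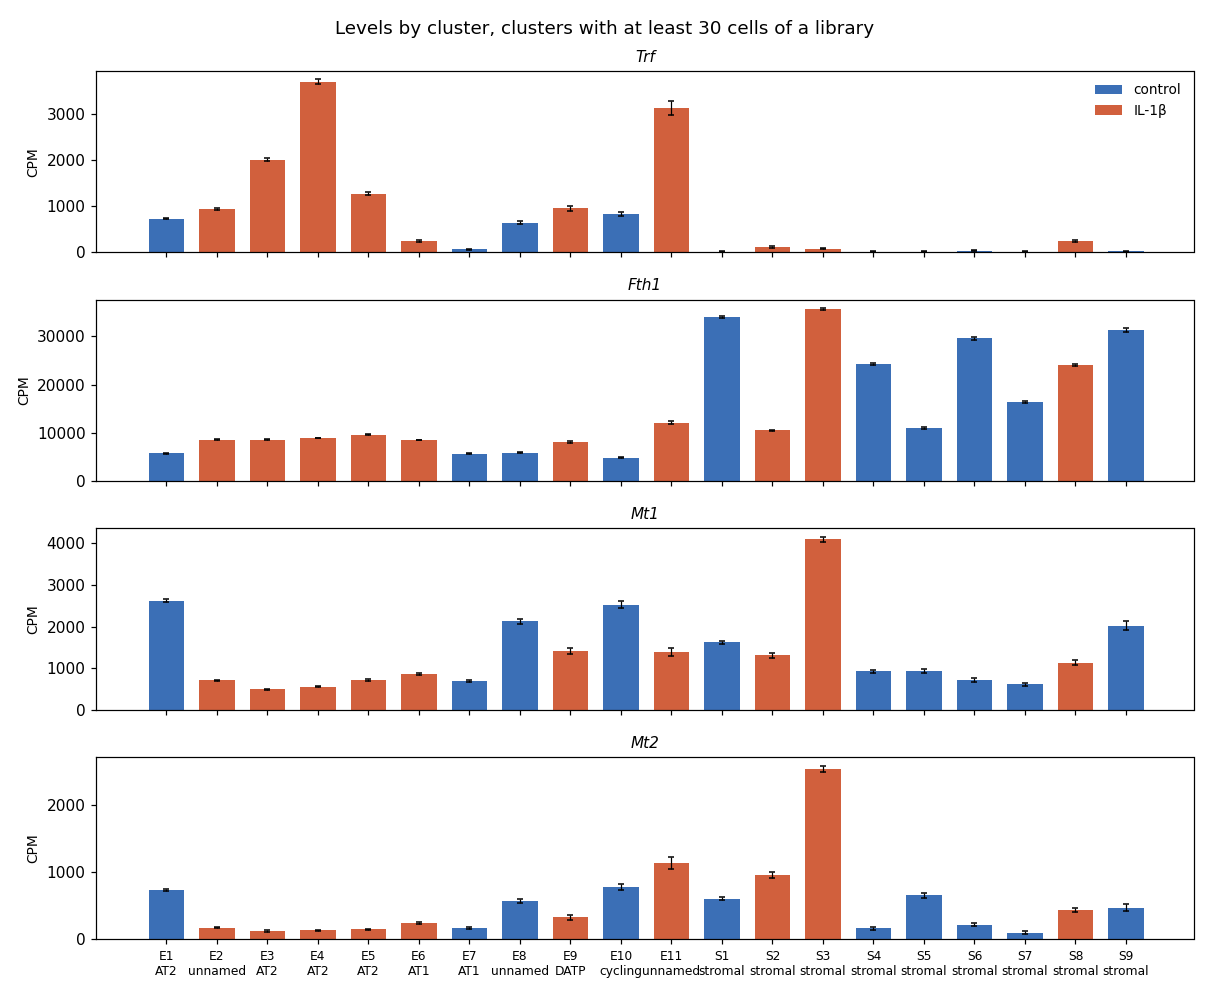
Levels of Trf, Fth1, Mt1 and Mt2 (CPM, axes from 0) in each cluster with at least 30 cells of a library; bars are blue for control and orange for IL-1β, with 95% counting intervals. E clusters are epithelial and S clusters stromal; Trf varies from 1278 to 3700 among IL-1β AT2-lineage-like clusters, and Mt1 and Mt2 are highest in the IL-1β stromal cluster S3 (4083 and 2534).

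Counted against all genes, taking those with at least 20 UMIs in a class and a ratio of at least 2-fold, 1 of 7 member genes was higher with IL-1β in AT2-lineage-like cells (Trf), where 9.26% of 12298 genes were, and 2 of 7 were lower (Mt1 and Mt2), where 4.73% were. In AT1-like cells 1 of 7 was higher (Trf, background 6.48% of 10802 genes) and 0 were lower (4.75%). In stromal cells 4 of 8 were higher (Trf, Slc39a14, Mt1 and Mt2, background 5.28% of 12843 genes) and 1 was lower (Slc40a1, background 13.4%). Of these, Mt1 fell short of 2-fold without the top 5% of cells by UMIs (ratio 1.69). It also did so with cells thinned to 4000 UMIs and as a mean over cells (1.99 each). The median log2 ratio of these members was −0.16 in AT2-lineage-like, 0.51 in AT1-like and 0.75 in stromal cells, beside 0.096, −0.0093 and −0.33 over all genes with enough UMIs. The count of 4 in the stroma includes Trf, whose stromal share of the AT2-lineage-like level lay near that of Sftpc. The members, and the lists below, were chosen with earlier results of these data known. Counts beside the share over all genes are therefore descriptions only.

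Other genes of iron, heme, zinc and copper handling were taken from 3 lists, of which 80 of 83 genes were in the files. In AT2-lineage-like cells 64 had enough UMIs, with 8 at least 2-fold higher and 2 at least 2-fold lower with IL-1β, where 9.26% and 4.73% of all genes were. The higher ones were 7 of 27 genes of the iron list, 1 of 23 of the zinc and copper list and 0 of 14 of the heme list. In AT1-like cells the counts were 8 higher and 5 lower of 64 (background 6.48% and 4.75%), and in stromal cells 6 and 4 of 65 (background 5.28% and 13.4%). Lcn2, which encodes lipocalin 2 and binds the siderophores by which bacteria take up iron, stood at 3721 and 19640 CPM in AT2-lineage-like cells (ratio 5.28, 5.23 to 5.33) and at 1364 and 9258 CPM in stromal cells (ratio 6.79). Cp, encoding the ferroxidase ceruloplasmin, stood at 21.99 and 125 CPM in AT2-lineage-like cells, a ratio of 5.67 (4.98 to 6.47). Its level was far higher in stromal cells, at 1095 and 1687 CPM (ratio 1.54, 1.51 to 1.57). Steap4, a metalloreductase, differed in opposite directions, with 10.5 CPM in the control and 56.4 CPM with IL-1β in AT2-lineage-like cells (ratio 5.36, 4.44 to 6.51) but 395 and 121 CPM in stromal cells (ratio 0.305, 0.286 to 0.325). The part of stromal RNA in the AT2-lineage-like values of Cp and Steap4 was not tested.

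Among the genes lower with IL-1β in AT2-lineage-like cells was Slc39a8, which encodes ZIP8, the closest relative of ZIP14, with 246 CPM in the control and 83.6 CPM with IL-1β (ratio 0.340, 0.319 to 0.362). Lrp2, encoding the endocytic receptor megalin, stood at 180 and 85.9 CPM (ratio 0.477), and Atp7b, a copper-exporting ATPase, at 38.9 and 21.7 CPM (ratio 0.557). In stromal cells Bmp2, a ligand that induces hepcidin in the liver, was higher (27.7 and 86.6 CPM, ratio 3.12), as was the zinc importer gene Slc39a4 (4.05 and 15.2 CPM, ratio 3.76), although the latter stood at 114 and 319 CPM in AT1-like cells, and the part of epithelial RNA in its stromal value was not tested. Steap3, the endosomal ferrireductase, was lower (17.5 and 7.93 CPM, ratio 0.453), and so was Iscu, the scaffold for iron-sulfur clusters (201 and 115 CPM, ratio 0.571). Mt3 and Mt4, the other metallothionein genes, had 0 UMIs in AT2-lineage-like cells and at most 3 UMIs in the other classes compared. With 3 UMIs taken as the limit for a count of 0, the AT2-lineage-like count allows up to 0.257 CPM in the control and 0.168 CPM with IL-1β.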

How the data were processed

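Organoids were profiled by 10x 3′ scRNA-seq, 1 library for PBS control and 1 for IL-1β. The authors made counts of UMIs per gene and barcode with Cell Ranger on GRCm38 and deposited them unfiltered beyond the choice of barcodes. The submitters' notes also list Scanpy 1.3.6 and the build mm9. The cutoffs of the study's methods were applied here (more than 500 and fewer than 7000 genes, more than 2000 UMIs). The scrublet rule of the methods marked 3 cells, which is too low a number to have worked, so doublets remain. Counts were scaled to 10000 per cell, log-transformed and reduced to 50 principal components, and clusters were found with scanpy 1.11.5 and Leiden (leidenalg 0.10.2) at a resolution of 1.0, with the 8 genes and the lists left out of clustering. Names come from marker lists by the highest mean log2 fold over other epithelial cells (pseudocount 0.1). The naming rule was set after clusters were seen. The members and lists were chosen with earlier results of these data known.

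Levels are summed UMIs per 1000000 UMIs of the class, with exact Poisson intervals. Ratios have exact binomial (Clopper-Pearson) intervals. Where 0 UMIs were found, up to 3 were taken as allowed. Shares of cells were taken after thinning each cell to 4000 UMIs, which left out 0 cells. The control library had 33965848 UMIs in total and the IL-1β library 41220175. PCR duplicates are removed by UMIs, but intervals cover counting error only. The 3 genes named per direction and class from the lists are those with the interval limit farthest from 1, and the likeness of a pattern is Pearson's correlation of log2 CPM (pseudocount 1) over clusters by library with at least 30 cells, among genes with at least 100 UMIs. On simulated data with 200 changed genes, 100% were recovered in AT2-lineage-like (9892 genes), 100% in AT1-like (7723) and 99.5% in stromal cells (10070). The simulated counts held counting error only, the error that the intervals assume, and covered genes with at least 100 UMIs. High recovery was thus built in, and it says nothing of variation between cultures, cells or clusters. Alternatives varied scaling, weighting of cells, depth, doublets, clustering and thresholds. Hairpins and positions come from GENCODE M21, promoters from RefSeq. The in vivo samples of the study were not analysed here.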

Additional observations from a re-analysis of the deposited data

Results flagged for a closer look

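The metallothionein genes were flagged because their ratios of IL-1β over control point in opposite directions in different classes. These differences were not tested, since each condition has 1 library. The Mt1 ratio in AT1-like cells was 5.34 times that in AT2-lineage-like cells, and in stromal cells 11.4 times. For Mt2 the factors were 8.16 and 26.2. The comparison with AT1-like cells rests on ratios that turned below 1 at a clustering resolution of 0.5, while the comparison of stromal with AT2-lineage-like cells kept its direction under each of the 14 alternatives.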

How the results depend on the processing

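No paired analysis was possible because each condition has 1 library. Of 322 log2 ratios recomputed under 14 alternatives, 309 kept their sign. The Slc40a1 ratio in AT2-lineage-like cells turned to a log2 ratio of 0.69 when cells were thinned to 4000 UMIs, which leaves few UMIs of that gene. The Trf ratio in AT2-lineage-like cells lay between 2.40 and 3.27, that of Mt1 between 0.210 and 0.2504 and that of Mt2 between 0.166 and 0.207. The number of the 8 genes at least 2-fold higher in AT2-lineage-like cells was 2 without the top 5% of cells by UMIs, at a resolution of 2.0, with Louvain clustering, with libraries clustered separately, with random seed 1 and with the unnamed Sftpc-high clusters added (chosen after seeing the data), and 3 at a fold of 1.5. In AT1-like cells it was 2 without the top 5% or without a count minimum and 0 with member and list genes kept in clustering. In stromal cells 2 were lower at a fold of 1.5. The stromal Mt1 ratio fell below 2 without the top 5% (1.69), with cells thinned to 4000 UMIs (1.99) and as a mean over cells (1.99). Of the lists, the number lower in stromal cells was 7 without the top 5%, 11 at a fold of 1.5 and 2 relative to the median ratio of all genes. At a fold of 1.5, 13 list genes were higher in AT2-lineage-like, 14 in AT1-like and 12 in stromal cells, and without a count minimum 14 and 11 were higher in AT2-lineage-like and stromal cells. Beyond the altered thresholds themselves, the cause was not tested. Depth limits Slc40a1 and Slc39a14 in epithelial cells and Tfrc in single cells.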

Other observations

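Over 20 clusters by library, the genes whose log-scale levels were most like Trf were St8sia6 (Pearson correlation 0.97), Sema4a (0.96) and Lyz2 (0.96), of 11886 genes ranked. Lyz2 encodes a lysozyme of AT2 cells and macrophages. For Tfrc they were Fgfr2, Abca3 and Cpm (each 0.96). Abca3 encodes the lipid transporter of lamellar bodies. For Fth1 they were the interferon-inducible membrane protein genes Ifitm1 (0.94), Ifitm2 (0.93) and Ifitm3 (0.91), and for Ftl1 Borcs7, Clpp and Pebp1 (each 0.81). For Slc40a1 they were Adgrl3, Tenm3 and Dhx58os (each 0.97), and for Slc39a14 Pde1a, Serping1 and Slc7a2 (each 0.97). Outside the pair itself (0.87), none of the 11886 genes ranked came close to the metallothioneins: the most alike were Tmem192 for Mt1 (0.67) and Nup160 for Mt2 (0.68). The ranking left out the members, predicted genes, and mitochondrial and ribosomal protein genes. The clusters share libraries, and differ in depth and in the amount of RNA from other cells, so these values are descriptions.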
